A study of Mus musculus with 6 samples.

Results

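The collagen chain genes of lung endothelial cells were compared between mouse pups with and without endothelial deletion of Smad4. Members were all genes whose symbol has the form of a collagen chain, Col followed by a type number, the letter a and a chain number. This gave 44 genes of the 24951 in the deposited counts. By collagen type they comprised 11 fibrillar genes, 9 network-forming genes, 9 fibril-associated genes, 2 multiplexin genes, 6 genes of type VI and its relatives, 1 anchoring fibril gene, 4 transmembrane genes and 2 others, Col26a1 and Col28a1.

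All pups were at postnatal day 5 and carried 2 floxed Smad4 alleles (Smad4 f/f). The mutants also carried Cdh5-CreERT2, a tamoxifen-inducible Cre recombinase driven by a promoter active in endothelial cells, and the controls had no Cre, so no group combined Cre with intact Smad4. The labels call the controls wildtype and leave out when and how much tamoxifen was given, and a sentence of the protocol calls the mice HHTf/f and HHTiECKO without explaining the names. Lungs were digested, cells were pulled down with beads carrying an antibody to the endothelial surface protein CD31, and polyadenylated RNA was sequenced from 3 control and 3 mutant libraries, described as independent biological samples.

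Collagens are proteins of 3 chains wound into a triple helix, and each chain has its own gene. Fibrillar collagens such as types I, III and V build the rope-like fibrils of connective tissue and are made mainly by fibroblasts and related mesenchymal cells. Type IV collagen forms the sheet-like network of basement membranes, on which endothelial cells sit, and multiplexins and fibril-associated collagens decorate basement membranes and fibrils. In the lung capillary wall, endothelial and epithelial cells share a fused basement membrane.

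The promoters of Col15a1 and Col28a1 are shown here because they belong to 2 of the 3 collagen genes with the largest called increases in the mutants. The third, Col14a1, had no entry in the promoter table. Each is the 250 bases before the gene's RefSeq start on GRCm38.p6, printed on the gene's strand, at chr4:47207762-47208011 (+) and chr6:8192618-8192867 (-). No exon of GENCODE M21 lies in either window. Capitals mark CAGAC, a sequence that SMAD proteins can bind.

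Col15a1: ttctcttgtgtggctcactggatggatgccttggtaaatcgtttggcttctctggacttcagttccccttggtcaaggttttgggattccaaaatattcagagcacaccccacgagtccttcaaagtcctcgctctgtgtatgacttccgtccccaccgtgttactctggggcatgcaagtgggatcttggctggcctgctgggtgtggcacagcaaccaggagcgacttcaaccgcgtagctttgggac

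Col28a1: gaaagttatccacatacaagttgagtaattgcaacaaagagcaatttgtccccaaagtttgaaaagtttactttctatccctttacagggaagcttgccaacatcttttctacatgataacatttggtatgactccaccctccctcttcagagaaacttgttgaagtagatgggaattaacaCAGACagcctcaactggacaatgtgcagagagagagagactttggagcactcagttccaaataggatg

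The Col28a1 window holds CAGAC once, at bases 68 to 64 before the start, and the Col15a1 window has no match on either strand. Among 38 windows of the 35 collagen genes with a RefSeq entry, 44.7% held CAGAC or its reverse complement GTCTG, against 42.2% of all 32851 windows of this length. GGCGCC, a palindromic sequence that SMADs of the BMP branch can bind, was in 10.5% of collagen windows and 9.6% of all windows, and TATAAA, the core of the TATA box, in 13.2% and 12.4%. GGGCGG or CCGCCC, the GC box, was in 57.9% against 32.7%. The collagen windows were also richer in G and C, with a median of 59.0% against 52.4%. These are matches of letters in a window and say nothing about binding.

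Smad4 itself stood at 188, 177 and 181 CPM (CPM are counts scaled by library size, here with TMM factors) in control replicates 1, 2 and 3, and at 88.8, 72.9 and 94.2 CPM in the mutant replicates. On the log2 scale the mutants were lower by a difference of -1.09 ± 0.10 (SE), with a Benjamini-Hochberg adjusted p of 0.000604 in edgeR's quasi-likelihood test. Assigned reads ranged from 14093564 to 21113926 per library. A floor of 3 counts is worth 0.142 to 0.213 CPM. The endothelial markers Cdh5 and Pecam1 were abundant in both groups, with control means of 2185 and 1570 CPM. Markers of lung epithelium were also present, Sftpc at 1092 and Ager at 564 CPM in controls, as were the fibroblast markers Npnt at 309.7 and Mfap4 at 228 CPM, so RNA of other lung cell types was present.

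Of the 44 collagen genes, 41 had enough reads to be tested. Col14a1, Col15a1, Col28a1 and Col4a1 rose in the mutants at an adjusted p under 0.05 and the other 37 did not pass, with 0 called lower. Among all 14934 tested genes, 3.27% were called, 1.93% higher and 1.34% lower. At an unadjusted p under 0.05, 7 collagen genes stood higher and 2 lower, the latter being Col6a5 and Col6a6. At this threshold 1128 of all 14934 tested genes stood higher and 967 lower. DESeq2 called 5 higher, with Col4a2 as the fifth, and 0 lower, and limma-voom called 4 higher and 0 lower. Groups did not overlap, with every mutant library above every control library, for 7 collagen genes, against 11.6% of all genes. These were Col4a1, Col4a2, Col8a1, Col14a1, Col15a1, Col17a1 and Col28a1. Every mutant library was below every control library for 1 collagen gene, Col6a6, against 9.04% of all genes.

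Over the 41 tested genes the log2 fold change ran from -1.30 for Col6a6 to 3.53 for Col28a1, with a median of 0.12 and 27 genes above 0. The median over all tested genes was -0.002. By class, the median was 0.53 for the multiplexins, 0.17 for the network-forming genes, 0.16 for the transmembrane genes, 0.15 for the fibril-associated genes, 0.06 for the fibrillar genes and -0.12 for type VI and its relatives. The multiplexin median is the midpoint of 2 genes, Col15a1 at 1.01 and Col18a1 at 0.05. No class was tested as a whole, and each called gene was the only one of its class to pass.

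**Figure D1:**
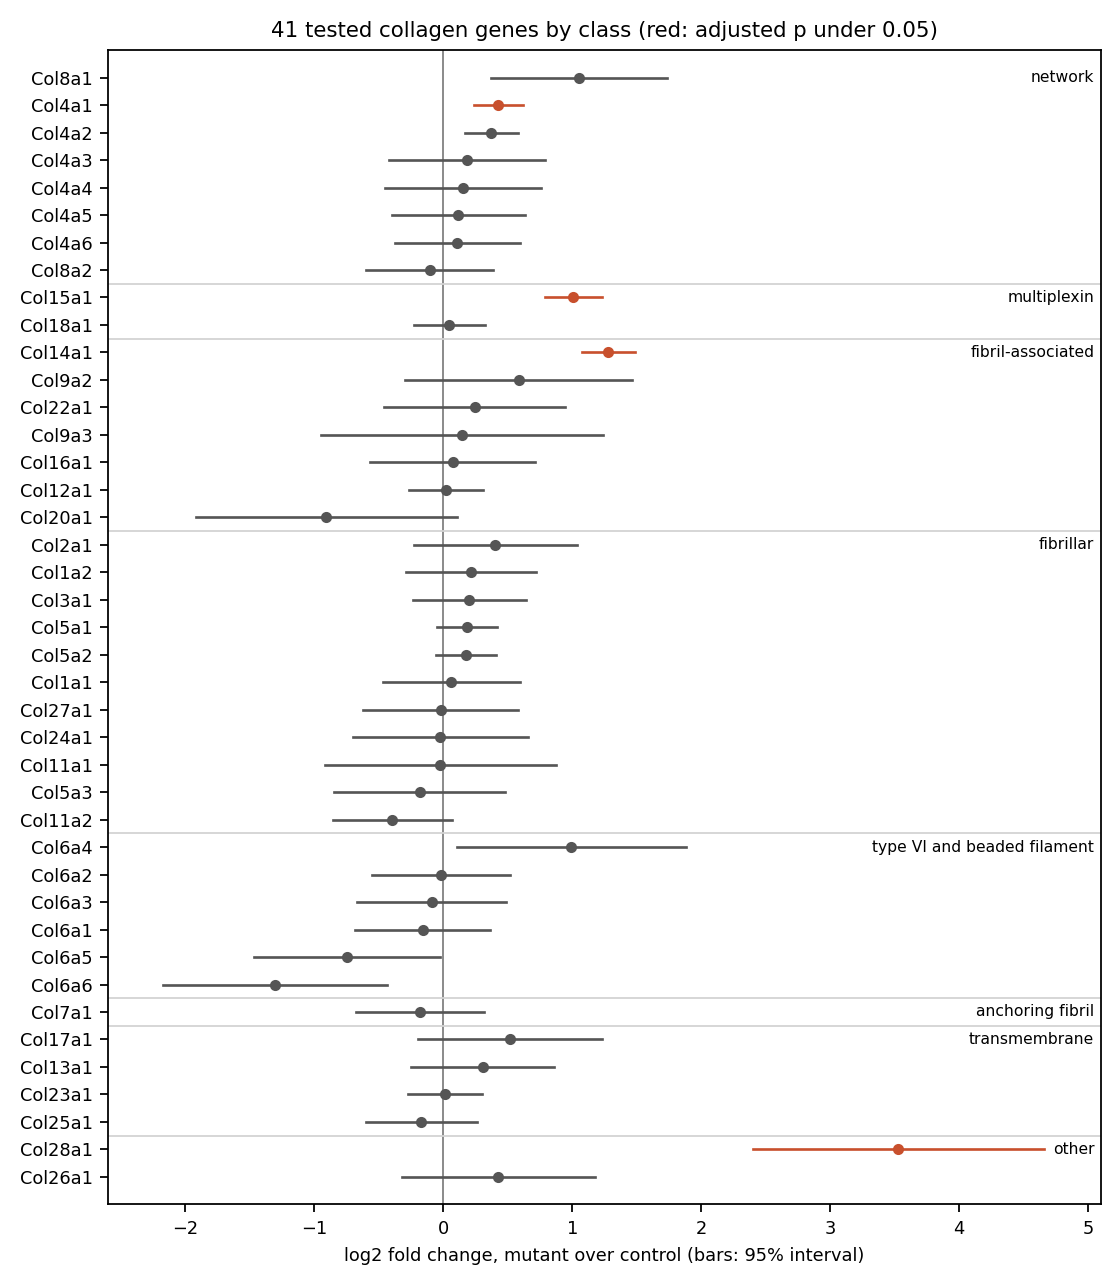
Log2 fold change, mutant over control, of the 41 tested collagen genes (x axis) in rows grouped by class, with the 95% interval as a bar and genes at an adjusted p under 0.05 in red. Col28a1, Col14a1, Col15a1 and Col4a1 are the 4 red points, and the intervals of the fibrillar genes all cross 0.

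To compare levels between genes, CPM was divided by the length of the longest annotated coding transcript. On this scale of CPM per kilobase, Col4a1 and Col4a2 stood far above the rest in controls, at 629 ± 18.2 and 463 ± 20.6 (SD, n = 3). Col3a1 at 89.1 ± 19.2, Col5a2 at 78.1 ± 9.53, Col1a2 at 65.8 ± 14.3 and Col1a1 at 52.1 ± 11.3 came next, and neighbours among these 4 did not differ beyond their spread. Col15a1 followed at 44.1 ± 1.22, ahead of Col4a3, Col6a1 and Col18a1. In the mutants Col15a1 moved from the 7th to the 4th place, Col14a1 from the 15th to the 9th and Col28a1 from the 39th to the 23rd. At the bottom were 3 genes that were not tested. Col9a1 had 3, 1 and 3 counts in the controls and 0, 1 and 2 in the mutants, Col10a1 had 2, 4 and 0 and then 3, 0 and 2, and Col19a1 had a single count in control replicate 3.

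**Figure D2:**
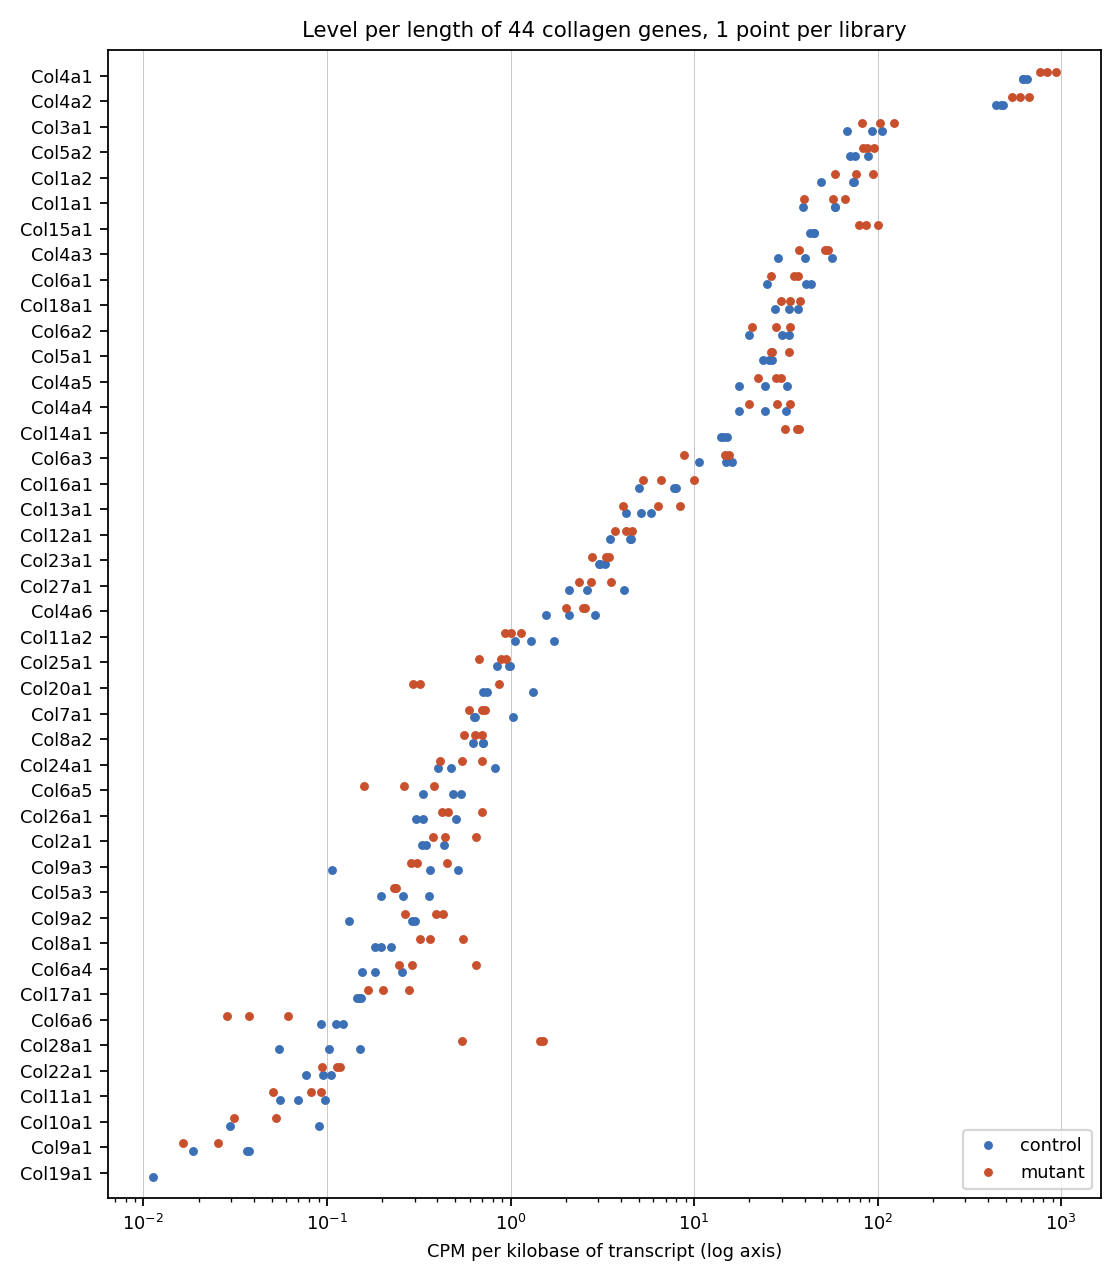
Level of each of the 44 collagen genes in CPM per kilobase of transcript on a log axis, 1 point per library, controls in blue and mutants in red, ordered by the control mean. Libraries with no count are not drawn. Col4a1 and Col4a2 lie far to the right of all other genes in every library, and the mutant points of Col15a1, Col14a1 and Col28a1 lie to the right of all control points.

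Among the network-forming collagens, the main chains of the basement membrane, Col4a1 and Col4a2, were the most abundant collagen transcripts and stood higher in every mutant library. Their proteins assemble together as 2 chains of the first with 1 of the second. Col4a1 (GRCm38 chromosome 8, 11198423 to 11312826, minus strand) was at 4098, 4082 and 4299 CPM in the controls and 5549, 6165 and 5055 CPM in the mutants. Its mean went from 4160 ± 121 to 5590 ± 556 CPM (SD, n = 3 each), 1.34-fold higher, with a log2 fold change of 0.43 ± 0.09 (SE) and an adjusted p of 0.0242 by edgeR. The groups did not overlap, and the lowest mutant library, replicate 3, was still above the highest control. The call was lost in 7 of 14 alternative fits, among them every fit without 1 library except the one without mutant replicate 3, with an adjusted p of up to 0.12, while the log2 fold change stayed between 0.35 and 0.50.

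Col4a2 (chromosome 8, 11312805 to 11449287, plus strand) lies head to head with Col4a1, and the annotated first exons of the pair overlap at their starts. It was at 3021, 2843 and 3103 CPM in the controls and 3822, 4320 and 3472 CPM in the mutants, again without overlap and with mutant replicate 2 highest. The log2 fold change of Col4a2 was 0.37 ± 0.09 (SE), close to that of Col4a1, but its adjusted p of 0.061 missed the threshold (edgeR). It was called by DESeq2 (adjusted p = 0.0219), with no scaling factor in edgeR (0.0429), without the filter on low counts (0.0496) and without mutant replicate 3 (0.0325). The ratio of Col4a1 to Col4a2 per length was 1.36 ± 0.039 in controls and 1.41 ± 0.015 in mutants (SD, n = 3 each; two-sided exact permutation test, p = 0.2). Adjusted over the 9 ratios between pairs of collagen genes that were tested in this way, p was 0.3.

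The minor type IV chains make up the tougher networks of specialised basement membranes, in lung the alveolar one, where the epithelium is a known source. Col4a3 was at 480, 345 and 246 CPM in the controls and 441, 460.1 and 318.5 CPM in the mutants (log2 fold change 0.19 ± 0.25, SE; adjusted p = 0.802 by edgeR). Col4a4, which starts 72 bases from Col4a3 on chromosome 1 and runs the other way, was at 319, 246 and 177 CPM and then 287, 337 and 202 CPM. Col4a5 was at 211, 158 and 115 CPM in controls and 184, 195 and 146 CPM in mutants. Col4a6, its neighbour on the X chromosome, was at 19.1, 13.9 and 10.3 CPM and then 16.9, 16.6 and 13.4 CPM. In all 4 genes control replicate 1 was the highest control and control replicate 3 the lowest library of all, and the groups overlapped. None of the 4 was called (adjusted p 0.802 to 0.869 by edgeR).

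Control replicate 3, with the least of the minor chains, had the most Col4a1 and Col4a2 among the controls. The summed level per length of Col4a1 and Col4a2 was therefore 9.07, 11.9 and 17.7 times that of Col4a3, Col4a4 and Col4a5 in control replicates 1, 2 and 3. The corresponding values in the mutants were 13.2, 13.7 and 16.4, inside the range of the controls.

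The type VIII chains form hexagonal networks beneath endothelia. Col8a1 was scarce, at 0.933, 1.14 and 1.01 CPM in controls and 1.87, 1.63 and 2.83 CPM in mutants. The groups did not overlap, and the log2 fold change was 1.05 ± 0.31 (SE) and an adjusted p of 0.117 by edgeR, so Col8a1 was not called. Its partner Col8a2 was at 2.71, 3.06 and 3.09 CPM and then 2.42, 2.76 and 3.02 CPM (adjusted p = 0.876), with overlapping groups.

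The multiplexins are basement membrane collagens whose C-terminal fragments are known as inhibitors of angiogenesis, endostatin in the case of type XVIII. Col15a1 (chromosome 4, 47208161 to 47313167, plus strand) was at 232, 221 and 232 CPM in the controls and 449, 519 and 411 CPM in the mutants. The controls lay within a narrow band and all mutants were far above it. The means were 228 ± 6.29 and 459.6 ± 54.5 CPM (SD, n = 3 each), a 2.01-fold rise, with a log2 fold change of 1.01 ± 0.10 (SE) and an adjusted p of 0.000651 by edgeR. The call was kept in each of 14 alternative fits, where the log2 fold change ran from 0.92 to 1.09.

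Col18a1, the other multiplexin, was at 184, 155 and 207 CPM in the controls and 166, 211 and 187 CPM in the mutants, with overlapping groups. Its log2 fold change was 0.05, with a 95% interval from -0.23 to 0.32 (adjusted p = 0.909 by edgeR). The ratio of Col15a1 to Col18a1 per length was 1.36, 1.54 and 1.21 in the controls and 2.93, 2.65 and 2.38 in the mutants, without overlap. By a two-sided exact permutation test over libraries p was 0.1 (0.3 adjusted over the 9 ratios), and 0.1 is the smallest value that 3 libraries against 3 can give.

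**Figure D3:**
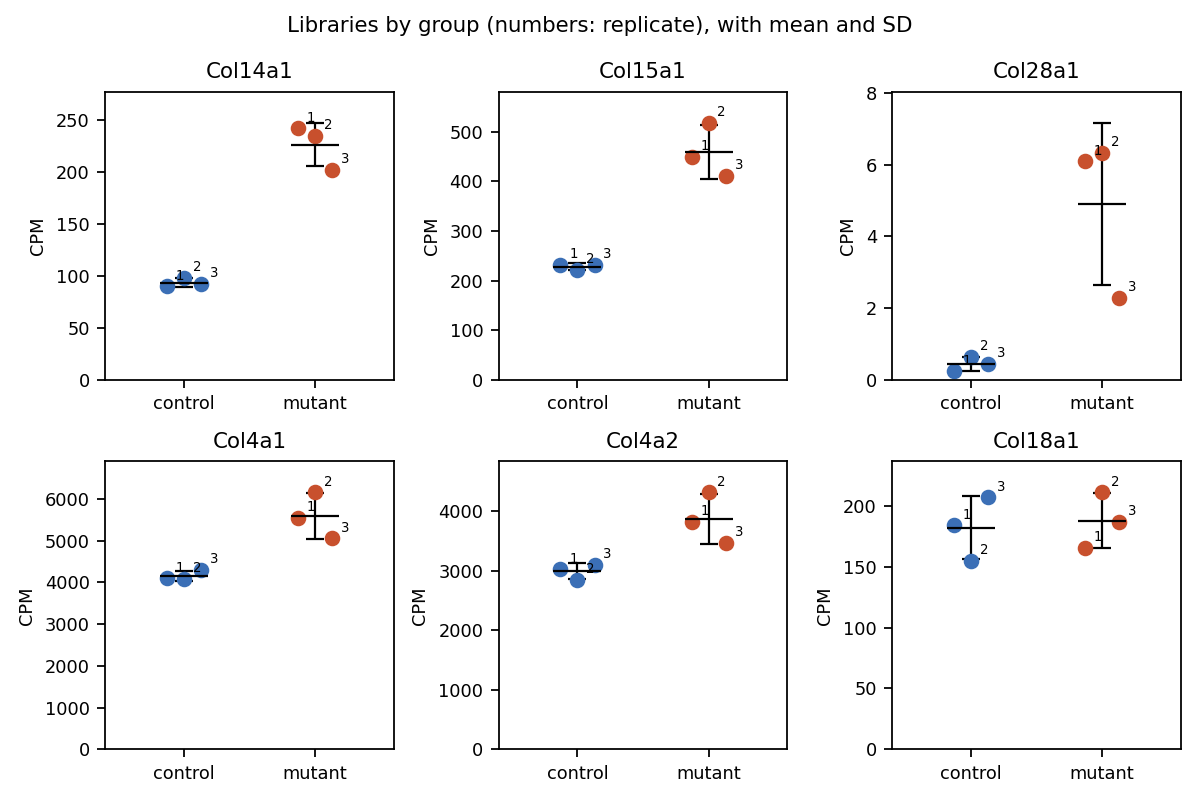
Level in CPM of the 4 called collagen genes and of Col4a2 and Col18a1 in each library, with the replicate number beside each point and the group mean and SD in black. Col14a1, Col15a1, Col28a1, Col4a1 and Col4a2 show no overlap between groups, and Col18a1 does overlap. Each panel has its own y axis from 0.

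Among the fibril-associated collagens, which lie on the surface of fibrils and link them to their surroundings, Col14a1 rose and the other 6 tested genes were not called. Col14a1 encodes type XIV collagen, known to regulate the assembly of fibrils of type I collagen. The gene (chromosome 15, 55307750 to 55520803, plus strand) was at 89.9, 98.0 and 92.3 CPM in the controls and 242, 235 and 202 CPM in the mutants. Every mutant library held more than 2 times the level of any control. The means were 93.4 ± 4.14 and 227 ± 21.2 CPM (SD, n = 3 each), 2.43-fold higher, with a log2 fold change of 1.28 ± 0.09 (SE) and an adjusted p of 0.00014 by edgeR, the smallest of the collagen genes. The call was kept in each of 14 alternative fits, with log2 fold changes of 1.22 to 1.35.

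The closely related Col12a1 was at 51.5, 52.0 and 39.9 CPM in controls and 53.1, 49.3 and 42.8 CPM in mutants. Its log2 fold change was 0.02, with a 95% interval from -0.27 to 0.31 (adjusted p = 0.967 by edgeR). The per-length ratio of Col14a1 to Col12a1 was 3.11, 3.36 and 4.13 in the controls and 8.13, 8.50 and 8.44 in the mutants, without overlap (two-sided exact permutation test, p = 0.1, and 0.3 adjusted over the 9 ratios). Col16a1, the next in abundance, went from 36.0 ± 8.75 to 37.9 ± 12.6 CPM (SD, n = 3 each; adjusted p = 0.935). Col20a1, Col9a2, Col9a3 and Col22a1 had control means of 0.709 to 4.63 CPM and adjusted p-values of 0.417 to 0.927.

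Type XXVIII collagen, a chain with von Willebrand factor A domains known from the basement membranes around glial cells of peripheral nerves, showed the largest fold change of any collagen gene. Col28a1 (chromosome 6, 7997808 to 8192617, minus strand) had 5, 9 and 9 counts in the controls and 111, 101 and 47 counts in the mutants. These correspond to 0.233, 0.641 and 0.434 CPM and to 6.09, 6.34 and 2.29 CPM. Mutant replicate 3 was well below the other two mutants but above every control. The log2 fold change was 3.53 ± 0.50 (SE; 11.6-fold; adjusted p = 0.00534 by edgeR), and the call was kept in each of 14 alternative fits, with log2 fold changes of 3.11 to 3.88. The gene passed the filter on low counts through its mutant libraries, and its control level of 0.436 ± 0.204 CPM (SD, n = 3) lies near the floor, so the size of the fold is imprecise.

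Sox10 and Cdh19, defining markers of Schwann cells, the glia of peripheral nerves, were at or near 0. Sox10 had 0, 0 and 1 counts in the controls and 0, 0 and 3 in the mutants, and Cdh19 had 0, 0 and 0 and then 0, 0 and 2. Of the 6 Schwann markers 3 could be tested and 0 were called, by edgeR, DESeq2 and limma-voom alike, with 0 at an unadjusted p under 0.05. Their summed level was 27.5 to 52.1 CPM in controls and 35.4 to 43.3 CPM in mutants, nearly all of it Erbb3.

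EdgeR called 3.27% of all tested genes. Of the 11 fibrillar collagen genes, all tested, 0 were called in either direction by edgeR, DESeq2 or limma-voom, and 0 had an unadjusted p under 0.05. Col3a1, the highest of them per length, was at 519, 589 and 379 CPM in the controls and 573, 680.2 and 459.5 CPM in the mutants. Its log2 fold change was 0.20 with a 95% interval from -0.23 to 0.64 (adjusted p = 0.689 by edgeR). Col1a1 was at 348, 347 and 231.5 CPM and then 339, 395 and 234.5 CPM, where the log2 difference was 0.06 and its interval -0.47 to 0.60 (adjusted p = 0.932). Col1a2, whose product joins that of Col1a1 in type I collagen, was at 394, 398 and 263.5 CPM and then 406, 507 and 313 CPM (adjusted p = 0.716). In each of these 3 genes replicate 3 was the lowest of its group and the spread within a group exceeded the difference between groups.

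The ratio of Col1a1 to Col1a2 per length varied far less than the levels, at 0.798, 0.787 and 0.792 in the controls and 0.754, 0.702 and 0.676 in the mutants. The mutants were all below the controls (two-sided exact permutation test, p = 0.1, the smallest possible, and 0.3 adjusted over the 9 ratios). Col5a1 and Col5a2 encode type V chains, which start fibrils within type I collagen. Col5a2 was at 588, 468 and 496 CPM in controls and 548, 629 and 577 CPM in mutants (log2 fold change 0.18 ± 0.10, SE; adjusted p = 0.496 by edgeR). Col5a1 went from 212 ± 12.4 to 241 ± 32.1 CPM (SD, n = 3 each; adjusted p = 0.481). The chains known mainly from cartilage were scarce, Col2a1 at 1.89 CPM, Col11a2 at 8.22 CPM and Col11a1 at 0.568 CPM in controls, with adjusted p-values of 0.444 to 0.986.

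Type VI collagen forms beaded filaments near cell surfaces, and its 3 main chains assemble together. None of the 6 genes of this class was called, and 5 of the 6 had a log2 fold change below 0. Col6a1 was at 179, 166 and 102 CPM in controls and 143, 150.0 and 108 CPM in mutants (log2 fold change -0.16 ± 0.22, SE; adjusted p = 0.81 by edgeR). Col6a2 was at 152.5, 139.8 and 92.6 CPM and then 130.5, 154 and 96.6 CPM, and Col6a3 at 163, 150.0 and 107 CPM and then 149, 157 and 89.4 CPM. All 3 overlapped between groups, with replicate 3 the lowest library of each group.

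The remaining type VI relatives were scarce. Col6a6, singled out after its values were seen, was at 0.980, 1.07 and 0.820 CPM in the controls and 0.329, 0.251 and 0.537 CPM in the mutants, without overlap, on 4 to 21 counts per library. Its log2 fold change was -1.30 ± 0.39 (SE), with an adjusted p of 0.131 (edgeR). Col6a6 passed the filter on low counts through its control libraries, where it was higher. Col6a5 went from 4.20 ± 0.991 to 2.50 ± 1.05 CPM (adjusted p = 0.336) and Col6a4 from 1.46 ± 0.382 to 2.91 ± 1.62 CPM (SD, n = 3 each; adjusted p = 0.286), where mutant replicate 3 at 4.78 CPM was the highest library.

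Transmembrane collagens are cell-surface proteins with a collagenous ectodomain. Col13a1, the highest of the 4 per length, was at 16.3, 18.3 and 13.5 CPM in controls and 20.0, 26.5 and 12.97 CPM in mutants (log2 fold change 0.30 ± 0.24, SE; adjusted p = 0.638 by edgeR). Col23a1 was steadier, at 17.8 ± 0.708 and 17.9 ± 2.02 CPM (SD, n = 3 each). Col17a1, known from the hemidesmosomes of epithelia, went from 0.838 ± 0.0174 to 1.21 ± 0.327 CPM (SD, n = 3 each; adjusted p = 0.524). Its groups did not overlap, but these values rest on 12 to 25 counts per library. Col7a1, the anchoring fibril gene, was at 5.83, 9.54 and 5.93 CPM and then 6.48, 6.72 and 5.51 CPM (adjusted p = 0.779). Col26a1 was at 0.933, 0.855 and 1.40 CPM and then 1.26, 1.95 and 1.17 CPM (adjusted p = 0.625). Apart from Col17a1, the groups overlapped in each of these genes.

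**Figure D4:**
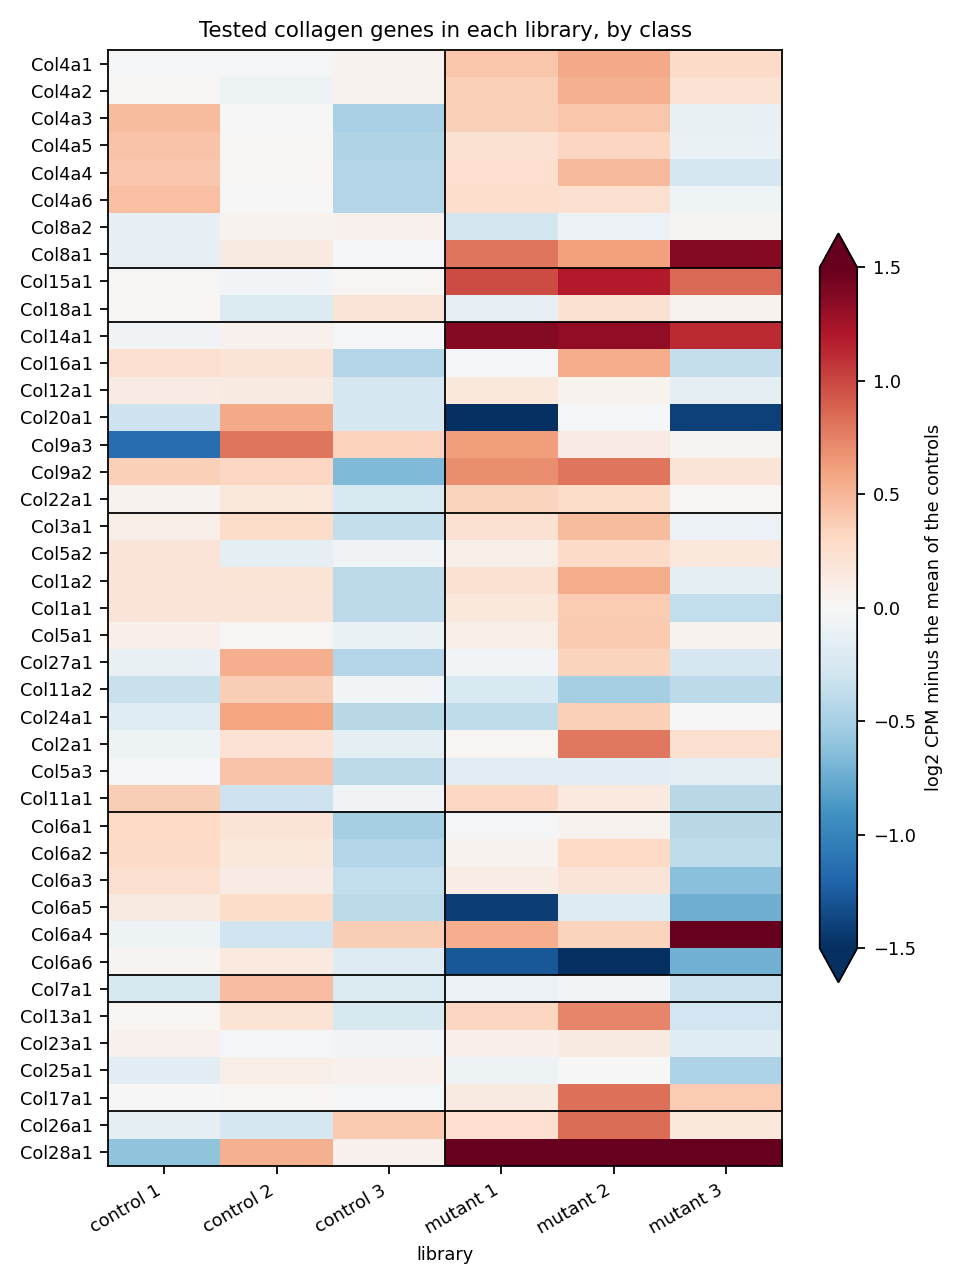
Log2 CPM minus the control mean of each tested collagen gene (rows, by class) in each of the 6 libraries (columns), red above and blue below the controls, with colours clipped at 1.5 in either direction. Col14a1, Col15a1 and Col28a1 are red in all 3 mutant libraries, whereas control replicate 3 is blue across the minor type IV chains, Col1a1, Col1a2, Col3a1 and the 3 main type VI chains.

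As a share of all assigned reads, the 44 collagen genes took 1.16%, 1.08% and 1.04% in the controls and 1.36%, 1.55% and 1.25% in the mutants. Col4a1 and Col4a2 alone accounted for 0.723%, 0.690% and 0.735% and then 0.920%, 1.04% and 0.867%. Without these and without Col14a1, Col15a1 and Col28a1, the remaining 39 genes took 0.346% ± 0.0644 in controls and 0.376% ± 0.0594 in mutants (SD, n = 3 each), a difference smaller than the spread. The share of collagen reads from Col15a1 went from 2.09% ± 0.101 to 3.30% ± 0.0564.

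The level of mesenchymal cells carried over with the beads was read from 18 fibroblast and 20 pericyte and smooth muscle markers, none of them a collagen. Per library it was the median over the markers of log2 CPM minus the control mean. The 38 markers together stood at 0.15, 0.12 and -0.29 in control replicates 1, 2 and 3 and at 0.18, 0.34 and -0.07 in mutant replicates 1, 2 and 3. Control replicate 3 was therefore the poorest and mutant replicate 2 the richest in mesenchymal RNA, and the groups overlapped. No marker was at 0 in any library. Their summed level was 1301 to 1826 CPM in controls and 1580 to 2017 CPM in mutants. By edgeR 0 of the 38 markers were called, against 3.27% of all tested genes, with a median log2 fold change of 0.15. At an unadjusted p under 0.05 there were 2 higher and 2 lower, against 1128 and 967 of all 14934 tested genes. DESeq2 called 1 higher, the pericyte gene Rgs5, at 38.3 ± 8.02 and 79.2 ± 24.7 CPM (SD, n = 3 each), and limma-voom called 0. Rgs5 was at 69.9, 60.5 and 107 CPM in mutant replicates 1, 2 and 3. It was thus highest in the mutant library where the 38 markers together were lowest.

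The median of the fibrillar class had the same lowest and highest libraries as these markers, at 0.07, 0.22 and -0.36 in the controls and 0.08, 0.36 and -0.14 in the mutants on the same log2 scale. Replicate 3 was the lowest library of both groups for 5 of the 11 fibrillar genes. Col5a2 departed from this, at 588, 468 and 496 CPM in controls and 548, 629 and 577 CPM in mutants. Type VI and its relatives were also lowest in replicate 3 of each group, at 0.19, 0.15 and -0.38 and then 0.02, 0.12 and -0.52. For type IV chains 3 to 6 the values were 0.44, 0.01 and -0.44 and then 0.26, 0.37 and -0.11. The epithelial markers stood at 0.41, 0.15 and -0.48 in the controls and -0.02, 0.06 and -0.21 in the mutants, with summed levels of 2385 to 4434 CPM and 3102 to 3542 CPM and 0 of 13 called or at 0. Control replicate 3 was thus low in the medians of the fibroblast, pericyte and epithelial markers and of these collagen classes, though not in each of their genes. In bulk RNA, fewer cells of a type and less RNA per cell cannot be told apart.

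Col4a1 and Col4a2 did not follow that order in the controls, where they stood at 0.00, -0.05 and 0.05, nor did the multiplexins, at 0.02, -0.13 and 0.11. In the mutants both did have replicate 2 as the highest, at 0.39, 0.55 and 0.25 for the type IV pair and 0.43, 0.70 and 0.45 for the multiplexins. There the type IV pair had the full order of the mesenchymal markers, with replicate 2 highest and replicate 3 lowest. Col15a1 had it as well, at 449, 519 and 411 CPM, and so did Col28a1, at 6.09, 6.34 and 2.29 CPM. Col14a1 was instead highest in mutant replicate 1, at 242, 235 and 202 CPM. The endothelial markers stood at -0.03, -0.05 and 0.06 in controls and 0.04, 0.09 and -0.06 in mutants. Of these 15 markers Robo4 was called higher and Tek, Flt1 and Sox17 lower, and their summed level was 11350 to 12570 CPM in controls and 11890 to 12310 CPM in mutants. The part of the mesenchymal and epithelial levels in the collagen values was not tested beyond the covariate fit given last.

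**Figure D5:**
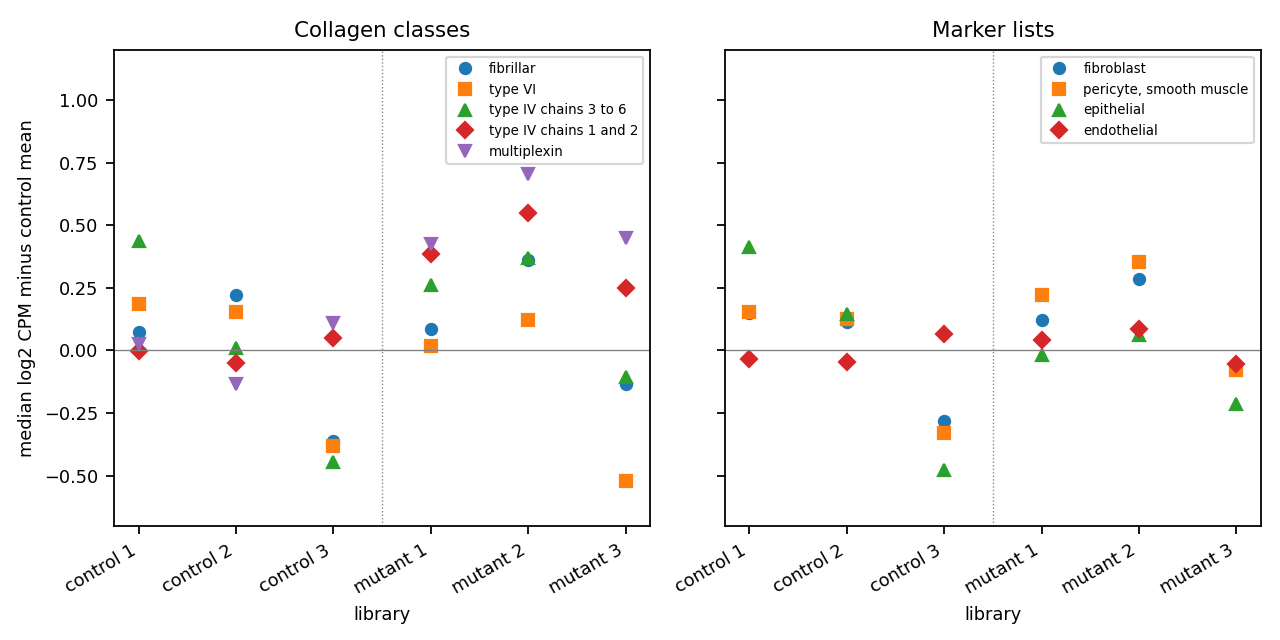
Median over the genes of a class (left) or a marker list (right) of log2 CPM minus the control mean, by library. Among the controls, fibrillar, type VI and type IV chains 3 to 6 lie lowest in replicate 3, at -0.36, -0.38 and -0.44, as do the fibroblast, pericyte and epithelial markers. Type IV chains 1 and 2 and the multiplexins, each the midpoint of 2 genes, lie between 0.25 and 0.70 in the mutant libraries.

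Replicate 3 was the lowest library in both groups for 18 of the 41 tested collagen genes, a pattern noticed after the values were seen. It held for 23 of 38 mesenchymal markers, 9 of 13 epithelial markers, 0 of 15 endothelial markers and 11.8% of all tested genes. The 18 were 5 fibrillar genes, among them Col3a1, Col1a1 and Col1a2, 4 fibril-associated genes, type IV chains 3 to 6, Col6a1, Col6a2, Col6a3, Col13a1 and Col23a1. None of the 4 called collagen genes was among them, since control replicate 3 was not the lowest control in any of the 4. Mutant replicate 3 was still the lowest mutant library in each of the 4.

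With the mean of the 38 mesenchymal markers as a covariate beside genotype, 3 collagen genes were called. Col14a1 kept a log2 fold change of 1.24 (adjusted p = 0.000355 by edgeR), Col15a1 one of 0.97 (adjusted p = 0.00156) and Col28a1 one of 3.11 (adjusted p = 0.0123). Col4a1 kept 0.40 but was no longer called (adjusted p = 0.0791). Across the tested members, 17 of 41 were above 0 in place of 27, and the median went from 0.12 to -0.05, while that of all genes went from -0.002 to -0.005. The fibrillar median went from 0.06 to -0.15 and that of type VI and its relatives from -0.12 to -0.35, whereas that of the multiplexins was 0.53 in both. The 6 libraries leave 3 residual degrees of freedom in this fit.

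Cartilage markers summed to 47.0 to 70.3 CPM in controls and to 91.0 to 192 CPM in mutants, and most of this was Hapln1. Hapln1, which links hyaluronan to proteoglycans and is not limited to cartilage, was at 34.5, 30.3 and 52.2 CPM in controls and 172, 71.4 and 74.6 CPM in mutants (adjusted p = 0.181 by edgeR). Of the 9 cartilage markers, 5 were tested and 0 were called by edgeR, which called 3.27% of all tested genes. Matn1, Cnmd and Snorc were at 0 in some libraries. Acan, Comp and Matn3 were scarce, with control means of 0.198, 0.650 and 0.458 CPM and mutant means of 0.0738, 0.458 and 0.580 CPM. Sox9 and Cytl1 had means of 7.83 and 9.51 CPM in controls and 9.04 and 9.75 CPM in mutants.

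Collagen chains are hydroxylated, folded, trimmed and crosslinked by dedicated enzymes and chaperones. Of 35 such genes 34 were tested and 0 were called by edgeR, DESeq2 or limma-voom, where edgeR called 3.27% of all tested genes. The median log2 fold change of the 34 was 0.08, with 24 above 0. At an unadjusted p under 0.05, where 1128 of all 14934 tested genes stood higher and 967 lower, 2 of the 34 stood higher and 1 lower. These 3, named after their values were seen, were Sparc, a collagen-binding matricellular protein, at 1788 ± 49.0 and 2114 ± 156 CPM (adjusted p = 0.189), Serpinh1, the collagen chaperone HSP47, at 731 ± 48.1 and 839 ± 51.8 CPM (adjusted p = 0.339), and Colgalt2, a collagen galactosyltransferase, at 29.6 ± 2.56 and 23.2 ± 1.10 CPM (SD, n = 3 each; adjusted p = 0.161 by edgeR). The gene not tested was Mia3, which carries large cargo out of the endoplasmic reticulum and is listed at 0 counts in every library.

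Among 15 collagen receptors 2 were called lower and 0 higher, against 1.34% and 1.93% of all tested genes. The median log2 fold change of the 15 was -0.04. Adgrg6, an adhesion G protein-coupled receptor that binds type IV collagen, fell from 309.6, 286 and 299.9 CPM in the controls to 206, 204 and 229 CPM in the mutants, with no overlap. Its log2 fold change was -0.49 ± 0.08 (SE; adjusted p = 0.0108 by edgeR). That call was lost without mutant replicate 1 (0.0503) and without mutant replicate 2 (0.0661). Itga2, the collagen-binding integrin alpha 2 chain, fell from 275, 285 and 309 CPM to 234, 185 and 223 CPM, a log2 fold change of -0.44 ± 0.10 (SE; adjusted p = 0.0473 by edgeR). It lost its call in 10 of 14 alternative fits, with an adjusted p of up to 0.163. Its partner Itgb1 was at 1322 ± 121 and 1453 ± 40.9 CPM (SD, n = 3 each; adjusted p = 0.543). DESeq2 called 2 receptors lower and limma-voom 1.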

How the data were processed

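The deposited values were raw gene counts, which the authors gave per library and as a table, and 0 values differed between these forms and 0 columns lacked a sample. Per the submitters' processing notes the build was mm10 and DESeq2 was used, with no version or role given. The sources used here name no aligner, counter, annotation or use of strand. The TruSeq RNA v2 kit named in the labels does not mark strand, so reads where genes overlap, such as the 0.3% of Col4a1 exon length shared with other genes, cannot be told apart. Reads without a feature (53.9% to 58.2%) and ambiguous reads (0.288% to 0.366%) were left out.

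Counts were fitted in R 4.3.3 with edgeR 4.0.16 over all genes kept by filterByExpr with the group design (14934), with TMM factors (0.983 to 1.02), robust quasi-likelihood and two-sided F tests between the groups (6 libraries, without covariates). Genes were called at a Benjamini-Hochberg adjusted p under 0.05 over all tested genes. The SE was the log2 fold change over the square root of F, and intervals used the t quantile. Alternatives used RLE or no scaling factors, DESeq2 1.42.0, limma-voom (limma 3.58.1), no filter, a replicate block, each library left out, and mesenchymal markers or sex as covariates. Sex was read per library from Xist and Y-linked genes, with 1 male and 2 female libraries per group. The alternatives for Adgrg6 and Itga2 were added after seeing the data. The functions were tested on simulated data. Replicates of a group differed by more than sampling noise (chi-square per degree of freedom at least 12.3). P-values measure the spread between these pups. The names of all 6 columns share a tag (lit14) that the labels do not explain, so whether both groups came from a single litter is not known here.

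The members, classes and gene lists were chosen with earlier results of these data known. Of 148 list symbols 147 matched. Library values are given for called collagen genes, the most abundant per length of each class and their partner chains, and for other members and list genes chosen after their values were seen (Col18a1, Col12a1, Col5a2, Col8a1, Col8a2, Col6a6, the Schwann markers and Rgs5 among them). Coordinates and lengths were matched by symbol to GENCODE M21 (GRCm38, which is mm10), and promoters from RefSeq on GRCm38.p6.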

Additional observations from a re-analysis of the deposited data

How the results depend on the processing

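The number of collagen genes called higher stayed within 1.5 times of 4 in each of 14 alternatives and the number called lower stayed at 0. Over all genes 488 were called, against 747 by DESeq2 and 211 to 428 with 1 library left out, where 293 were called without control replicate 2, 325 without control replicate 3 and 211 without mutant replicate 2. With a replicate block 466 genes and 3 collagen genes were called. The replicate numbers were not treated as pairs, since deviations of same-numbered libraries correlated at -0.00955, 0.0194 and 0.156, and control replicate 1 correlated best with mutant replicate 2, at 0.119. The block took the call from Col4a1 (adjusted p = 0.0557 by edgeR). Genes whose direction changed were none of the called ones, and the cause was not tested. With the mesenchymal covariate the log2 fold change was -0.185 for Col1a1, -0.023 for Col1a2, -0.004 for Col3a1, -0.036 for Col4a3, -0.102 for Col4a4, -0.073 for Col4a5 and -0.062 for Col4a6. With 1 library left out it ran from -0.058 to 0.148 for Col18a1, reversed without control replicate 2 or mutant replicate 2 (-0.046), and from -0.107 to 0.251 for Col1a1, reversed without control replicate 3 or mutant replicate 2 (-0.106). It ran from -0.024 to 0.459 for Col4a3, -0.039 to 0.382 for Col4a4, -0.077 to 0.361 for Col4a5 and -0.088 to 0.374 for Col4a6, below 0 without control replicate 3 and, for Col4a4, also without mutant replicate 2 (-0.016). It ran from -0.203 to 0.153 for Col6a2, above 0 without control replicate 1 (0.132), control replicate 2 (0.05) or mutant replicate 3, from -0.249 to 0.13 for Col6a3, above 0 without control replicate 1 (0.037) or mutant replicate 3, and from -0.3 to 0.081 for Col7a1, above 0 without control replicate 2. No scaling moved the median of all genes by over 0.1. Depth limits Col28a1, Col8a1, Col17a1, Col6a4 and Col6a6, which rest on 4 to 111 counts per library.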
